A study of Mus musculus with 2 samples.

Results

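The p53 pathway was described here through 7 genes, *Trp53*, *Mdm2*, *Mdm4*, *Cdkn1a*, *Ccng1*, *Gadd45a* and *Perp*, chosen by symbol among the 32285 genes listed. They were measured in the hippocampal Cajal-Retzius (CR) cells of mice at postnatal day 14, by genotype and against *Trp73*, the p53 relative that marks CR cells, in the same cells. A barcode was taken as a CR cell when it held at least 2000 UMIs (unique molecular identifiers, counted once per captured RNA molecule) and at least 5 UMIs of *Reln*. This left 1003 of 1011 control barcodes of that depth and 390 of 406 knockout barcodes.

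The study asked how capicua (CIC), a transcriptional repressor, regulates the death of these transient neurons. Its single-cell RNA-sequencing compared 2 libraries. In the Control library, 4 mice (3 male, 1 female) of the genotype ΔNp73-Cre; Cic flox/+; tdT were pooled. In the Knockout library, 4 of their littermates (2 male, 2 female) were pooled, of the genotype ΔNp73-Cre; Cic flox/flox; tdT. Both genotypes therefore carried Cre driven by the ΔNp73 promoter of *Trp73* and the tdT reporter by which cells were sorted, and the control had 1 floxed *Cic* allele. By the study's own account *Cic* was not deleted in every CR cell of the knockout. With 1 library per genotype there was no replicate error and no test, and the 95% intervals printed in parentheses cover counting error within a library only.

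The control cells held 6981296 UMIs (median 6224 per cell) and the knockout cells 2937321 (median 6664), and the libraries shared 0 barcodes. Cells were chosen by *Reln*, and each of the 7 other CR markers, *Trp73* among them, was detected in 25% or more of the cells of both libraries, whereas at most 1 gene of any other cell type's list did, namely *Slc1a2* (astrocytes), *Cspg4* (oligodendrocyte precursors) and *Rgs5* (mural cells). Levels are given as CPM, the UMIs of a gene per 1000000 UMIs outside mitochondrial and ribosomal genes. The summed CR markers other than *Reln* were at 5872 CPM in the control. The summed lists of the 12 other cell types lay between 0.454 and 133 in the control library and between 0.723 and 119 in the knockout. *Cic* itself was at 58.9 CPM in control and 51.3 CPM in knockout cells, a ratio of 0.87 (0.71 to 1.06), read at the 3′ end, which need not lie in the deleted part. The CIC target *Etv4* went from 1.97 CPM in control cells to 70.9 CPM in knockout cells, and *Etv5* from 15 to 70.9 CPM.

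The transcription factor p53, encoded by *Trp53*, is held low by MDM2, a ubiquitin ligase, and by its relative MDM4, and DNA damage or other stress releases it from both. It then raises genes that halt division, such as *Cdkn1a*, the cyclin-dependent kinase inhibitor p21, and genes that favor cell death, and it raises *Mdm2* itself, which closes a feedback loop. In neurons p53 is known for its part in developmental and injury-induced death, and ΔNp73, the short form of its relative p73, is known to oppose it. UMIs were counted per gene, so those of *Trp73* do not tell ΔNp73 from the longer forms of p73.

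p53 binds DNA through pairs of a 10-base motif, the p53 half-site. Of the 7 genes, 6 had a promoter in RefSeq (GRCm38.p6, 250 bases before to 50 after the start), all but *Perp*. The half-site was found in 5 of these 6 (in neither *Mdm4* promoter), and in 8.36% of all 32851 promoters. The matches are printed with 10 bases on each side because this motif is the one by which p53 binds its targets. Capitals mark the half-site, and each sequence reads 5′ to 3′ on the gene's own strand. Distances are from the RefSeq start. The GENCODE annotation of *Gadd45a* reaches further 5′, so that its match lies inside the gene as positioned below. A match describes letters and not binding.
*Trp53*, chr11:69580274-69580303, plus strand, 75 bases before the start: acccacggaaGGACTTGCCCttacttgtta
*Mdm2*, chr10:117710925-117710954, minus strand, 186 bases before the start: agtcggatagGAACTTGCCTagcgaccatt
*Cdkn1a*, chr17:29090896-29090925, plus strand, 73 bases before the start: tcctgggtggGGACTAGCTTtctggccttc
*Cdkn1a*, chr17:29090918-29090947, plus strand, 51 bases before the start: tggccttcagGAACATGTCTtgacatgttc
*Ccng1*, chr11:40755452-40755481, minus strand, 185 bases before the start: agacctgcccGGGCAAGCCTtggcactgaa
*Gadd45a*, chr6:67037428-67037457, minus strand, 40 bases before the start: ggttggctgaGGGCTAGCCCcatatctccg

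Neither of the octamers known for CIC was in any promoter of the 6 genes on either strand. TGAATGAA was in 1.30% of all promoters and TGAATGGA in 1.21%. Nor did either of the 2 *Trp73* promoters hold an exact match to the p53 half-site or a CIC octamer. Only exact matches were sought in all these promoters, so a site that departs from a motif by a single base was not counted. The lack of a match therefore does not mean the lack of a site.

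Of the 7 genes, 6 reached 50 UMIs over both libraries, and 0 of these 6 were past 1.5-fold between the genotypes, against 7.34% of the 11194 genes that reached 50 UMIs. *Mdm2* and *Cdkn1a* were lower in the knockout, *Perp* was higher, and *Trp53*, *Mdm4* and *Ccng1* were within 3% of the control. The median log2 ratio over the 6 genes was -0.02, beside 0.01 over all genes. From the 5% to the 95% quantile, the ratios of all 11194 genes ran from 0.72 to 1.47. The ratios of all 6 genes lay inside this range, those of *Mdm2*, *Cdkn1a* and *Perp* included.

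*Trp53* (chr11:69580359-69591873 of GRCm38, plus strand) was measured at 26.7 CPM (22.9 to 30.9) in the control, from 176 UMIs, and at 26.0 CPM (20.4 to 32.8) in the knockout, from 72 UMIs. The ratio of knockout over control was 0.98 (0.73 to 1.29). A UMI was found in 14.9% of control and 14.6% of knockout cells, and in 4.99% and 4.87% after each cell was thinned to 2000 UMIs. The p53 transcript was thus seen in a small share of cells of both genotypes, at like levels. Its relative *Trp73* (chr4:154056253-154140208, minus strand) was at 471 CPM (455 to 488) in the control library and 492 CPM (466 to 519) in the knockout, a ratio of 1.04 (0.98 to 1.11). The third family member, *Trp63*, had 0 UMIs in the control library and 1 in the knockout. *Trp73os*, an antisense gene, shares 280 exon bases with *Trp73*, and strand use in the counting is not stated in the sources used here.

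*Mdm2* (chr10:117688875-117710758, minus strand) was at 161 CPM (151 to 171) in the control, from 1062 UMIs, and at 125 CPM (112 to 139) in the knockout, from 346 UMIs. The ratio was 0.78 (0.69 to 0.88). The intervals of the levels did not overlap, but the share of all genes for which this holds was not counted. Nothing particular to *Mdm2* is therefore read from it. In the 1 random draw of thinned cells, 23.6% (21 to 26.4) of control cells and 21.3% (17.3 to 25.7) of knockout cells held a UMI, which overlap. The shares expected over all draws were further apart, at 25.1% and 20.9%. *Mdm2* is both the main brake on p53 and a p53 target, and its RNA was lower in the knockout. The ratio of *Trp53* was 0.98 with a wide interval (0.73 to 1.29), and the proteins were not measured. Its promoter is given whole because it carries the half-site in a GC-rich sequence (64.7% G and C), with capitals as before.
*Mdm2*, chr10:117710709-117711008, minus strand: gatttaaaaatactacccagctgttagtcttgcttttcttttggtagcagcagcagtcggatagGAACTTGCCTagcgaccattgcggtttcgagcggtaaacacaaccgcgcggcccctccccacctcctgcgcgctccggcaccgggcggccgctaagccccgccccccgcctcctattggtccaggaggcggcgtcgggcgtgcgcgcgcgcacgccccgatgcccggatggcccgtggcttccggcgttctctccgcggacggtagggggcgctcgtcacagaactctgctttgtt

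*Mdm4* (chr1:132959484-133030561, minus strand), which blocks p53 as a transcription factor, was at 152 CPM (142 to 161) in the control, from 1001 UMIs, and 150 CPM (136 to 165) in the knockout, from 415 UMIs. The ratio was 0.99 (0.88 to 1.11), and 25.8% and 25.4% of thinned cells held a UMI. The genes of the MDM proteins thus stood at different ratios, 0.78 for *Mdm2* and 0.99 for *Mdm4*. In the control 116 cells held 3 or more *Mdm2* UMIs and 96 held 3 or more of *Mdm4*, and at most 12 and 8 were found in a cell.

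*Cdkn1a* (chr17:29090976-29100727, plus strand) was at 47.9 CPM (42.7 to 53.5) in the control, from 316 UMIs, and 35.1 CPM (28.4 to 42.8) in the knockout, from 97 UMIs. The ratio was 0.73 (0.58 to 0.92). A UMI was found in 18.6% of control and 15.4% of knockout cells. In the 1 random draw of thinned cells the shares were 6.98% (5.48 to 8.74) and 3.33% (1.79 to 5.63), whereas the shares expected over all draws were 6.98% and 5.17%, so the low knockout share and the ratio of 0.47 (0.25 to 0.84) in that draw are not read as a difference. The mean over cells of each cell's CPM, which also weights cells equally but uses all UMIs, gave a ratio of 0.72. *Cdkn1a* UMIs were concentrated in few cells: 1 knockout cell held 11 UMIs, or 11.3% of all, and 1 control cell held 16 UMIs, or 5.06%. Without these 2 cells the ratio was 0.69 (0.53 to 0.87), on the same side of 1. The upstream promoter is given whole because it holds 2 half-sites, with capitals as before, and the other *Cdkn1a* promoter (chr17:29093519-29093818) held none.
*Cdkn1a*, chr17:29090729-29091028, plus strand: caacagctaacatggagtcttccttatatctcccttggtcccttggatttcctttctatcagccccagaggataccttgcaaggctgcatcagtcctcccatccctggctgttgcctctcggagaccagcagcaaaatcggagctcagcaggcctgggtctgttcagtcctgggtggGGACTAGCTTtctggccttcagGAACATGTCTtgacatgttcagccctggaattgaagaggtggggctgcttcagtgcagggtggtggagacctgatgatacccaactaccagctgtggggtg

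*Ccng1* (chr11:40748552-40755311, minus strand), which encodes cyclin G1, was at 15 CPM (12.2 to 18.3) in the control, from 99 UMIs, and 15.2 CPM (10.9 to 20.5) in the knockout, from 42 UMIs. The ratio of 1.01 had a wide interval, 0.69 to 1.47. *Gadd45a* (chr6:67035096-67037457, minus strand), a stress-induced gene of growth arrest and DNA repair, had 1 UMI in each library, so it was near the limit of detection and no ratio was formed. It shares 337 exon bases with the antisense gene *E230016M11Rik*.

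*Perp* (chr10:18845020-18857073, plus strand) encodes a membrane protein of cell junctions that p53 induces in apoptosis. It was at 18.0 CPM (14.9 to 21.6) in the control, from 119 UMIs, and 26.4 CPM (20.7 to 33.2) in the knockout, from 73 UMIs. The ratio was 1.46 (1.08 to 1.98), just inside 1.5-fold, although the levels' own intervals overlap slightly. After thinning, 2.99% (2.03 to 4.24) of control and 4.62% (2.76 to 7.20) of knockout cells held a UMI, which overlap. *Perp*, a death gene, and *Cdkn1a*, an arrest gene, thus stood on opposite sides of 1.

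**Figure D1:**
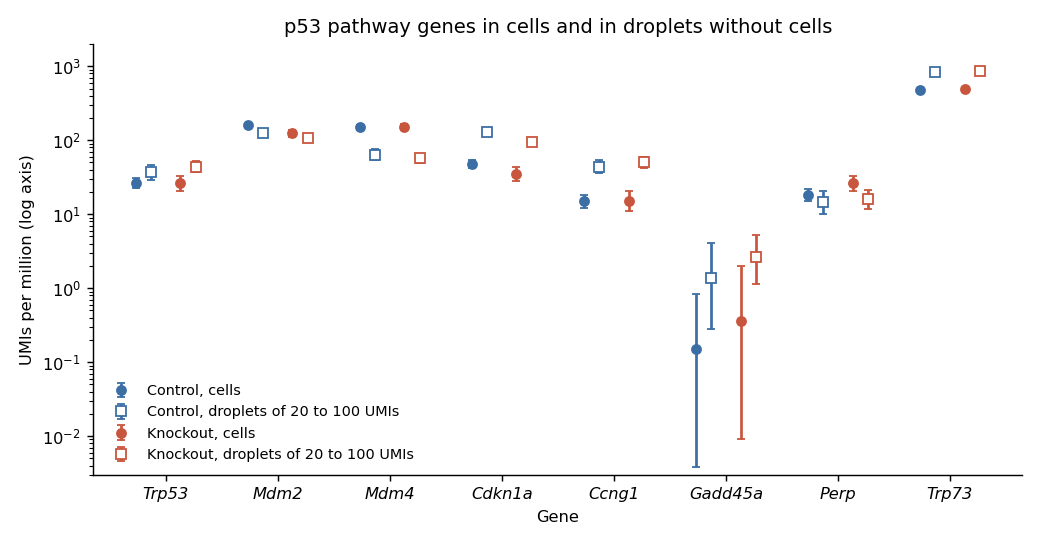
Level of each gene in CPM (log axis) in the cells (filled circles) and in droplets of 20 to 100 UMIs (open squares) of the Control (blue) and Knockout (red) libraries, with 95% Poisson intervals. *Mdm4* lies above its droplets in both libraries, at 2.38 and 2.64 times their level, whereas *Cdkn1a*, *Ccng1*, *Trp53* and *Trp73* lie below theirs.

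Droplets of 20 to 100 UMIs, which hold free RNA rather than a cell, were read in the same way (29040 control and 75813 knockout droplets, median 89 and 44 UMIs). *Mdm4* was higher in cells than in droplets, with ratios of 2.38 (1.99 to 2.86) in the control library and 2.64 (2.20 to 3.17) in the knockout. *Mdm2* was higher by 1.30 (1.14 to 1.5) in the control, and the knockout's 1.16 (0.99 to 1.35) included 1. *Cdkn1a* was at 128 CPM in control and 94.8 CPM in knockout droplets, so the droplets too were lower in the knockout, and cells stood at 0.38 and 0.37 of them. *Ccng1* cells stood at 0.34 and 0.30 of droplets and *Trp53* cells at 0.73 and 0.59. Free RNA was estimated at 6.02% of control and 3.81% of knockout cell UMIs, from 23 and 15 UMIs of *Hbb-bs*, *Hba-a1* and *Ttr*. Of these UMIs, 22 and 14 were of *Ttr*, so the estimate rests almost wholly on 1 gene, and no interval was formed for it. After it was subtracted, the ratio of knockout over control was 0.76 for *Cdkn1a*, 1.05 for *Ccng1* and 0.97 for *Trp53*. *Perp* was at 14.7 CPM in control and 16.1 CPM in knockout droplets, with cells at 1.23 (0.82 to 1.88) and 1.64 (1.12 to 2.40) times that, and a ratio of 1.47 after the subtraction. The droplet levels of *Perp* rested on 32 and 49 UMIs, with wide intervals of 10.0 to 20.7 and 11.9 to 21.3 CPM. Whether the droplets differ between the libraries as the cells do was not tested.

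The pools differed in the sex of the mice, so the genotypes were compared within cells of each sex, read from *Xist* and 4 Y-linked genes (227 female and 702 male control cells, 176 and 194 knockout cells). In female cells *Mdm2* was at 189 CPM (167 to 213) in the control library and 113 CPM (95.4 to 134) in the knockout, a ratio of 0.60 (0.49 to 0.74). In male cells it was at 152 CPM (142 to 164) and 131 CPM (113 to 151), a ratio of 0.86 (0.73 to 1.01). Both lay below 1, and the female control cells, all from 1 mouse, had the highest *Mdm2*. Within the control *Mdm2* was 1.24 times (1.07 to 1.43) and *Mdm4* 1.26 times (1.08 to 1.45) as high in female as in male cells, and in the knockout the ratios were 0.87 (0.69 to 1.09) and 1.09 (0.89 to 1.34). Sex and single mice cannot be told apart here. *Cdkn1a* had a ratio of knockout over control of 0.75 (0.51 to 1.11) in female and 0.65 (0.46 to 0.90) in male cells, and *Perp* 1.40 (0.80 to 2.49) and 1.71 (1.14 to 2.52), each on the same side of 1 in both sexes.

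**Figure D2:**
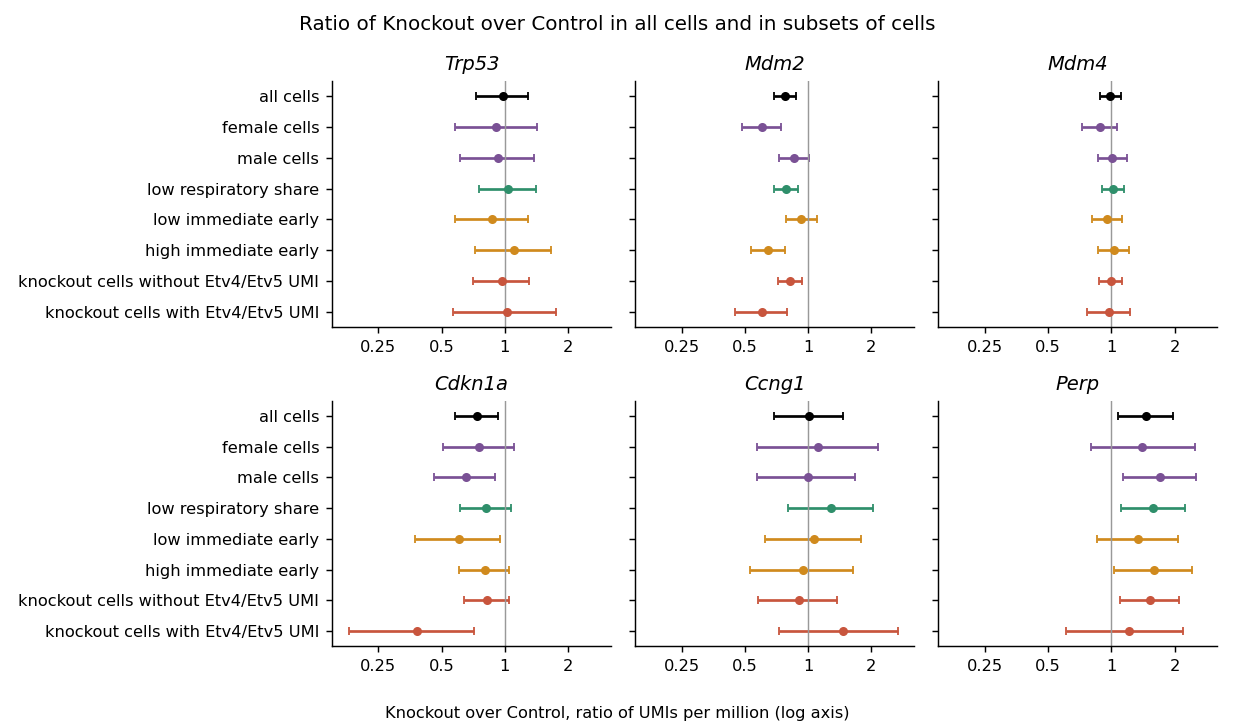
Ratio of Knockout over Control (log axis) for the 6 genes with at least 50 UMIs, in all cells and in subsets of cells, with 95% intervals for the ratio of 2 counts and a line at 1. The ratios of *Mdm2* and *Cdkn1a* lie below 1 and those of *Perp* above 1 in every row, with intervals that include 1 in some rows. *Trp53*, *Mdm4* and *Ccng1* have intervals that include 1 in every row. The rows share cells, so they are not independent.

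*Cic* deletion was not complete, so knockout cells were also divided by a UMI of *Etv4* or *Etv5*, 2 genes that CIC represses, after thinning to 2000 UMIs. This split was chosen after the data were seen. *Etv5* was found in 29.7% of knockout cells before thinning and in 13.3% after. A cell without an *Etv4* or *Etv5* UMI therefore need not have kept *Cic*, and 29 of the 1003 control cells held one after thinning. The 77 knockout cells with such a UMI had 18.3 CPM (8.76 to 33.6) of *Cdkn1a*, from 10 UMIs, and the 313 without had 39.2 CPM (31.4 to 48.4), beside 47.9 CPM in the control. The ratio of cells with over cells without was 0.47 (0.22 to 0.90), and over the control it was 0.38 (0.18 to 0.71) in cells with and 0.82 (0.64 to 1.04) in cells without. The knockout cell of 11 *Cdkn1a* UMIs was among the cells without, and the ratio of 0.47 was not formed without that cell. *Mdm2* showed the same order, at 96.8 CPM (72.5 to 127) with and 132 CPM (117 to 148) without, a ratio of 0.73 (0.54 to 0.98). Of the 5 genes with at least 50 UMIs in the knockout, only *Cdkn1a* was past 1.5-fold in this split, against 13.6% of the 7865 genes. *Perp* stood at 21.9 CPM (11.3 to 38.3) in cells with and 27.5 CPM (21 to 35.3) in cells without, a ratio of 0.80 (0.39 to 1.5) that includes 1. Over the control it was at 1.22 (0.61 to 2.20) in cells with and 1.53 (1.10 to 2.09) in cells without, which overlap. The cells with and without had medians of 6917 and 6534 UMIs.

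*Trp73* was then used to order the cells of each library by its own UMIs, into cells with 0, 1 to 2, 3 to 5 and 6 or more. In the control these groups held 113, 402, 337 and 151 cells, and in the knockout 30, 136, 163 and 61. *Cdkn1a* in the control was at 32.4 CPM (19.2 to 51.3) in cells with 0 *Trp73* UMIs, 41.6 and 42.4 CPM in the middle groups and 72.5 CPM (59.3 to 87.7) in cells with 6 or more. In the knockout it was at 6.28 CPM, from 1 UMI, then 32.2 and 33.6 CPM, and 47.8 CPM (32.7 to 67.5) in the highest group. The middle groups did not differ beyond their intervals in either library, and the highest control group stood apart from the other 3, with a ratio of 6 or more over 0 of 2.23 (1.35 to 3.92).

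The depth of the cells moved with these groups. The median was 5180 UMIs in control cells with 0 *Trp73* UMIs and 8797 in those with 6 or more, and 5054 and 9726 in the knockout. Cells were therefore also grouped by the *Trp73* UMIs left after thinning to 2000, while the levels still came from all UMIs. Control cells with 0, 1 and 2 or more such *Trp73* UMIs (469, 322 and 212 cells) had like median depths, of 6210, 6238 and 6156 UMIs, and differed less in *Trp73*, at 303, 503 and 794 CPM. *Cdkn1a* was then at 48.3, 44.1 and 52.5 CPM, and the ratio of 2 or more over 0 was 1.09 (0.81 to 1.45). In the knockout these groups stood at 30.5, 44.6 and 30.4 CPM, with a ratio of 0.99 (0.55 to 1.75). The order seen over raw *Trp73* UMIs was thus not seen between these groups of like median depth, which also span a smaller range of *Trp73*. The part of depth in it was not tested. Of the control cells with 6 or more and 0 *Trp73* UMIs, 107 and 106 had a low share of respiratory-gene UMIs, defined below. Between these cells the ratio of *Cdkn1a* was 1.85 (1.05 to 3.41). The part of the respiratory share was not tested either.

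*Mdm4* in the knockout was at 214 CPM (148 to 298) in cells with 0 *Trp73* UMIs, 174 and 149 CPM in the middle groups and 108 CPM (84.2 to 135) in those with 6 or more, a ratio of 0.50 (0.33 to 0.78). In the control it was at 135, 174, 149 and 126 CPM, with no such order and a ratio of 0.93 (0.71 to 1.24). Among cells of low respiratory share the knockout ratio of *Mdm4* was 0.66 (0.42 to 1.06), from 44 and 29 cells. The control ratio among such cells was 1.10 (0.82 to 1.49), and both intervals include 1. Between the groups by thinned *Trp73* the ratios of 2 or more over 0 were 0.90 (0.70 to 1.16) in the knockout and 0.96 (0.81 to 1.13) in the control. *Mdm2* was at 195, 152, 166 and 155 CPM over the control groups and 119, 148, 111 and 123 CPM over the knockout groups. Its ratio of 6 or more over 0 was 0.79 (0.63 to 1.01) in the control, and its ratio of 2 or more over 0 thinned *Trp73* UMIs was 1.17 (1.00 to 1.37). The direction for *Mdm2* thus depended on how the groups were formed, with both intervals reaching 1 or close to it.

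*Trp53* was flat over the control groups, at 27.0, 26.0, 28.0 and 25.5 CPM, and between 19.4 and 31.8 CPM over the knockout groups, with overlapping intervals. *Ccng1* went from 10.8 CPM at 0 to 22.1 CPM at 6 or more in the control, from 6 and 32 UMIs, and *Perp* was highest in cells with 3 to 5 UMIs in both libraries, at 22.3 and 31.8 CPM. Of the 4 genes with at least 50 UMIs in the extreme control groups only *Cdkn1a* was past 1.5-fold, against 30% of the genes measured, and of 2 in the knockout only *Mdm4*, against 35.2%. Over single cells at equal depth, the correlations with *Trp73* (log of 1 + UMIs) lay between 0.00 and 0.04 for 6 genes in 1003 control cells and between -0.08 and 0.09 for 5 genes in 390 knockout cells, where *Ccng1* was left out for its low count. Cells of a library share their preparation, and at 2000 UMIs most hold no UMI of these genes, so these values are a description only.

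**Figure D3:**
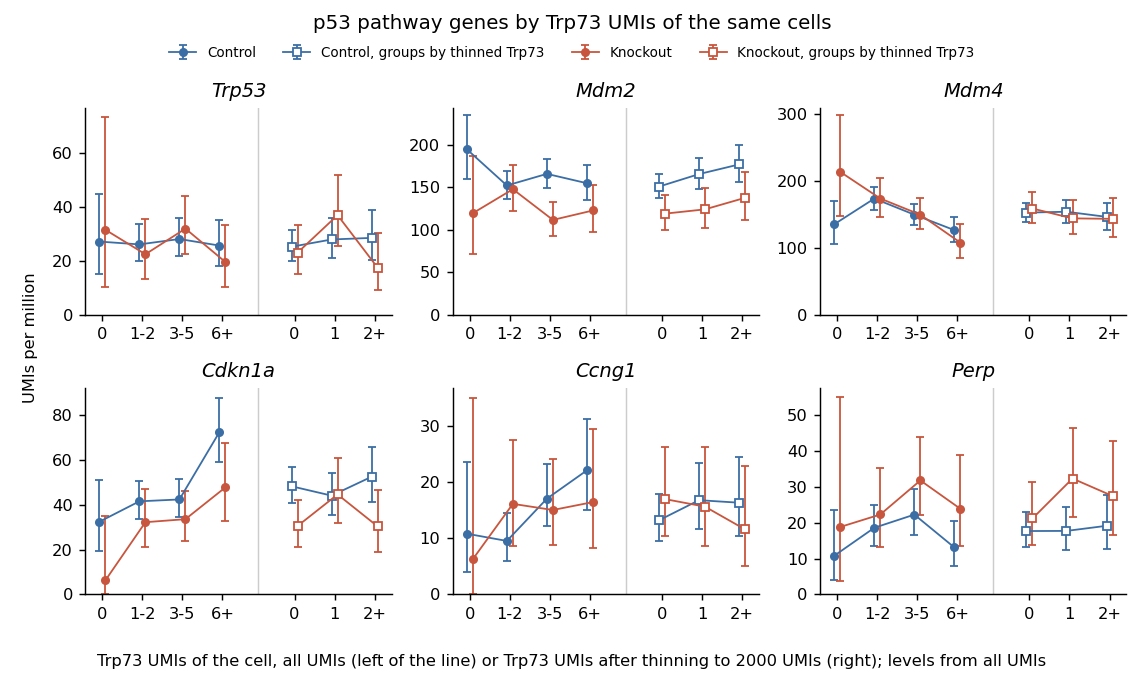
Level of 6 genes in CPM by the *Trp73* UMIs of the same cells in Control (blue) and Knockout (red), grouped by all *Trp73* UMIs (filled, left of the line in each panel) or by those left after thinning each cell to 2000 UMIs (open, right), with levels from all UMIs and 95% Poisson intervals. *Cdkn1a* in the control goes from 32.4 to 72.5 over the raw groups and lies between 44.1 and 52.5 over the groups by thinned *Trp73*.

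Cells were also split by the share of their UMIs from 98 nuclear genes of oxidative phosphorylation, since the study sets apart a group of CR cells rich in such genes. At a limit of 1.5%, 102 control and 41 knockout cells were high, and 190 and 92 cells lay within 0.5 points of the limit. In the control, *Cdkn1a* was at 101 CPM (83.2 to 122) in high and 37.6 CPM (32.6 to 43.0) in low cells, a ratio of 2.70 (2.12 to 3.42). *Ccng1* was at 38.5 CPM (27.6 to 52.2) and 10.5 CPM (7.95 to 13.5), a ratio of 3.68 (2.40 to 5.58), and *Perp* at 30.1 and 15.7 CPM, a ratio of 1.91 (1.23 to 2.90). *Mdm4* went the other way, at 94.8 CPM (77.2 to 115) in high and 163 CPM (152 to 174) in low cells, a ratio of 0.58 (0.47 to 0.72). *Mdm2*, itself a p53 target, at a ratio of 0.91 (0.76 to 1.08), and *Trp53*, at a ratio of 1.24 (0.83 to 1.82), had intervals that included 1. The 4 of 6 genes past 1.5-fold stood against 50.1% of all genes in the same split, so nothing particular to these genes is read from it.

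High cells were also deeper, with medians of 13182 and 6065 UMIs in the control library and 13104 and 6429 in the knockout. In the knockout *Mdm4* was again lower in high cells, at 74.3 and 166 CPM, a ratio of 0.45 (0.31 to 0.64). *Cdkn1a* had a ratio of 1.88 (1.16 to 2.97) that rested on 1 cell, since without the cell of 11 UMIs it was 1.15 (0.62 to 2.00). *Mdm4* and *Cdkn1a* were the 2 of 5 knockout genes past 1.5-fold, against 47% of all genes. Among low cells alone, the ratio of knockout over control was 0.78 (0.69 to 0.90) for *Mdm2*, 0.81 (0.61 to 1.07) for *Cdkn1a* and 1.58 (1.11 to 2.23) for *Perp*. Among high cells *Cdkn1a* was at 57.3 CPM in the knockout and 101 CPM in the control, a ratio of 0.57 (0.36 to 0.87).

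Immediate early genes, such as *Fos* and *Egr1*, respond within minutes to activity and to dissociation, and cells were split at the median of 10 of them. *Cdkn1a* was higher in the high cells of both libraries, at 64.6 CPM (56.3 to 73.7) against 30.1 CPM (24.3 to 36.7) in the control, and 51.7 CPM (40.4 to 65.1) against 18.2 CPM (11.8 to 26.9) in the knockout. The ratios were 2.15 (1.68 to 2.76) and 2.84 (1.78 to 4.67), and without the cells of most *Cdkn1a* UMIs they were 2.00 (1.56 to 2.58) and 2.43 (1.5 to 4.04). Depth hardly differed in this split, with medians of 6218 and 6224 UMIs in low and high control cells. *Cdkn1a* was the only gene of 6 in the control past 1.5-fold, against 9.27% of all genes, and the only gene of 5 in the knockout, against 12.9%. Within respiratory-low cells the ratios were 1.78 (1.33 to 2.38) and 2.53 (1.5 to 4.39).

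*Mdm2* differed between the libraries in that split. It was at 170 CPM (156 to 184) in high and 151 CPM (138 to 165) in low control cells, a ratio of 1.12 (0.99 to 1.27). In the knockout it was at 110 CPM (93.1 to 129) in high and 141 CPM (121 to 162) in low cells, a ratio of 0.78 (0.63 to 0.97). The ratio of knockout over control for *Mdm2* was 0.65 (0.54 to 0.77) in the immediate-early-high cells and 0.93 (0.78 to 1.10) in the low cells. This comparison was added after the data were seen, and the share of all genes that differ in this way was not counted. The ratio of *Cdkn1a* was 0.80 (0.60 to 1.05) in high and 0.61 (0.37 to 0.95) in low cells. *Egr1* itself was at 101 CPM in the control library and 40.9 CPM in the knockout, a ratio of 0.41 (0.33 to 0.50), while *Fos* was at 538 and 504 CPM. Their part in the *Mdm2* values was not tested.

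**Figure D4:**
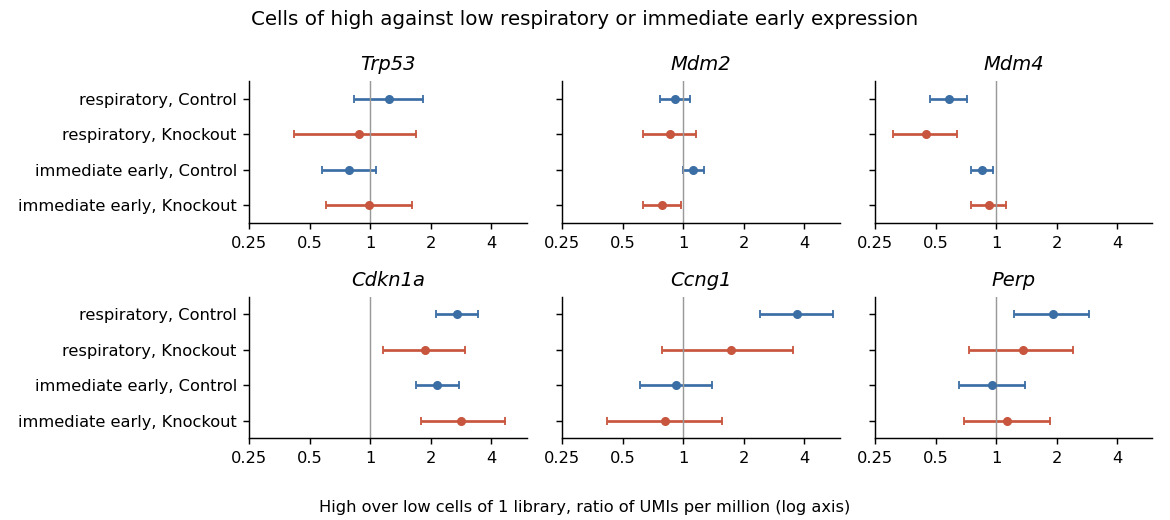
Ratio of high over low cells within a library (log axis) for 6 genes, for the split by respiratory share and the split by immediate early genes, in Control (blue) and Knockout (red), with 95% intervals and a line at 1. *Cdkn1a* is above 1 in all 4 rows, *Mdm4* is furthest below 1 in the respiratory rows, and *Mdm2* lies above 1 in the control library and below 1 in the knockout for the immediate early split.

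Among themselves the genes hardly moved together from cell to cell. Over 21 pairs, with *Trp73* included and *Gadd45a* left out, the correlations at equal depth lay between -0.04 and 0.04 in the control library and between -0.08 and 0.09 in the knockout. The variance over the mean of the thinned UMIs was between 1.01 and 1.26, highest for *Mdm2* in the control library. Counting noise alone would give 1, which the Poisson intervals assume. Thinning draws this value toward 1, and it was not computed over all UMIs, from which the intervals come. Over all UMIs, 816 control cells held 0 *Cdkn1a* UMIs, 25 held 3 or more and 1 held 16. The intervals can therefore be too narrow, those of *Cdkn1a* among them. Among 1823 genes with at least 1000 UMIs, the gene most like *Cdkn1a* was *Btg2*, an antiproliferative p53 target that is also an immediate early gene, with a correlation of 0.13 in both libraries, followed by its paralog *Btg1* at 0.11 and 0.13 and by *Arih1* at 0.08 and 0.09. *Mdm2* was followed by *4921511C10Rik* at 0.11 in both libraries, *Mdm4* by *Rufy2* at 0.10 in both, *Trp53* by *Mtch1* at 0.09 and 0.11, and *Trp73* by *Olfm1* at 0.08 and 0.11. All these correlations were weak in sparse counts.

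The wider pathway was read from 7 lists by role, holding 65 genes, of which 52 reached 50 UMIs. Past 1.5-fold were 2 genes higher and 0 lower in the knockout, against 7.34% of all genes in either direction. They were *Gls2*, a glutaminase that p53 induces, and *Gadd45g*, a paralog of *Gadd45a*. *Gadd45g* was at 15.6 CPM in the control library and 26.0 CPM in the knockout, a ratio of 1.67 (1.22 to 2.28), and *Gls2* at 6.21 and 9.40 CPM, a ratio of 1.51 (0.89 to 2.53). The median log2 ratio over the 52 genes was -0.01, against 0.01 over all genes.

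Of the 7 genes listed as brakes on p53 or their regulators, 6 reached 50 UMIs, with ratios from 0.75 to 1.15. *Cdkn2a*, whose product ARF restrains MDM2 and so releases p53, had 0 UMIs in both libraries, which allows up to 0.454 CPM in the control library and 1.08 CPM in the knockout. Of 13 activators and cofactors, 11 reached 50 UMIs, with ratios from 0.75 to 1.49. The most abundant were the acetyltransferase gene *Crebbp*, at 246 CPM in both libraries, and the kinase gene *Hipk2*, at 129 and 133 CPM. In these lists 0 genes were past 1.5-fold.

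Of 9 arrest targets, 5 reached 50 UMIs, with ratios from 0.73 (*Cdkn1a*) to 1.02, the latter for *Btg2* at 370 and 376 CPM. *Btg2* and *Cdkn1a*, the pair most alike from cell to cell, thus had different ratios between the genotypes. Of 15 death targets, 11 did, with ratios from 0.85 to 1.46, and *Perp* had the highest. *Trp53inp1*, which promotes p53-dependent death, was at 95.4 and 113 CPM, a ratio of 1.18 (1.03 to 1.36), and *Ei24* at 51.8 and 66.5 CPM, a ratio of 1.28 (1.07 to 1.54). *Bbc3* had a ratio of 1.24 (1.01 to 1.51), and *Aen*, the lowest of the list, 0.85 (0.61 to 1.17). The median log2 ratio of the death targets was -0.03, which does not describe single genes. The share of all genes with intervals that exclude 1 was not counted.

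Of 13 repair and metabolism targets, 12 reached 50 UMIs, and the highest ratio was that of *Gls2*, 1.51. *Sesn1*, a stress sensor of the mTOR pathway, was at 394 and 388 CPM, a ratio of 0.99 (0.92 to 1.06). Of the 5 paralogs of *Cdkn1a*, *Ccng1* and *Gadd45a*, *Cdkn1b* was at 94.1 and 98.7 CPM, a ratio of 1.05 (0.91 to 1.21), and *Cdkn1c* at 78.0 and 66.2 CPM, a ratio of 0.85 (0.71 to 1.01). *Cdkn1c* thus lay on the same side of 1 as *Cdkn1a*, and *Cdkn1b* on the other. The intervals of *Cdkn1b* and *Cdkn1c* both include 1. Over all 5 paralogs the ratios ran from 0.81 to 1.67, with a median log2 ratio of -0.24.

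**Figure D5:**
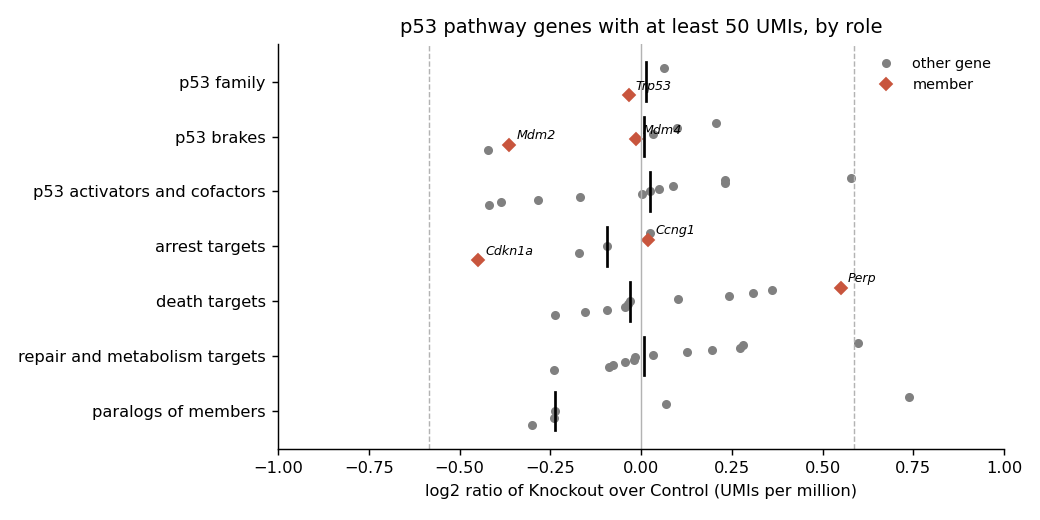
The log2 ratio of Knockout over Control for the pathway genes with at least 50 UMIs, in 7 lists by role, with the genes described here as red diamonds, other genes as gray circles, the median of each list as a black bar and dashed lines at 1.5-fold. *Mdm2* and *Cdkn1a* lie left of 0 and *Perp* right of 0, all inside the dashed lines.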

How the data were processed

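Hippocampal CR cells were measured by droplet single-cell RNA-sequencing in 2 libraries of 4 pooled mice each. The authors deposited raw counts of UMIs per gene and barcode, unfiltered and not normalized, made with Cell Ranger on mouse mm10 (32285 genes). The header of the matrices names Cell Ranger 4 and the submitters' processing notes name Cell Ranger 8.0.1 and mm39, another version than the methods. Whether introns or strand were used in the counting is not given in the sources used here. All 7 genes and the gene lists were chosen with earlier results of these data known.

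Barcodes of at least 2000 UMIs and 5 *Reln* UMIs were used, and no doublet caller was run. UMIs were summed per library or group of cells and divided by the UMIs outside genes starting mt-, Rpl, Rps or Mrp, in Python 3.11.15 with numpy 2.4.6, scipy 1.17.1 and pandas 2.3.3. Intervals are exact Poisson for levels, exact conditional for ratios and Clopper-Pearson for shares, all at 95%, and cover counting error only. Cells were thinned at random to 2000 UMIs (seed 1). With 1 library per genotype no test was made, and 1.5-fold was used as a rule of size for genes with at least 50 UMIs. Ratios were not formed when both groups held at most 3 UMIs. Named were every member and *Trp73*, the pathway genes past 1.5-fold and the 2 most abundant of each list, and the genes most like each member by the smaller of the libraries' correlations. Of these, 1 pathway gene is not reported here. *Cdkn2a*, *Trp63*, *Bbc3*, *Aen*, *Cic*, *Egr1*, *Fos*, *Etv4* and *Etv5* were named after their values were seen. Positions are of GENCODE M21 (GRCm38), which held 99.6% of the gene identifiers, and promoter sequences are of RefSeq (GRCm38.p6). Only the ratio intervals and the thinning were tried on simulated data. The simulated counts for the intervals were Poisson, as the intervals assume, so clumping of UMIs by cell and differences between mice were not covered.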

Additional observations from a re-analysis of the deposited data

Results flagged for a closer look

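*Mdm2* differed between the libraries in the split by immediate early genes among the cells of low respiratory share. It was at 175 CPM (160 to 192) in high and 152 CPM (138 to 167) in low control cells, a ratio of 1.15 (1.01 to 1.31). In the knockout it was at 107 CPM (88.4 to 129) in high and 146 CPM (126 to 169) in low cells, a ratio of 0.73 (0.57 to 0.93). These groups held 445 and 456 control cells and 166 and 183 knockout cells. *Mdm2* was picked out because the intervals lie on opposite sides of 1, and with 1 library per genotype the difference was not tested. The control interval only just excludes 1. Over cells of any respiratory share the control ratio was 1.12 (0.99 to 1.27), which includes 1. The number of comparisons searched is not given, and the share of all genes that meet this rule was not counted. Nothing particular to *Mdm2* is therefore read from it.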

How the results depend on the processing

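No paired analysis was possible because the groups hold 1 library each, so no replicate could be left out either. Over the alternatives, 125 values of ratios stayed within the main interval and 10 moved outside it. Most alternatives share cells with the main setting, so this tally says little of stability. Of the ratios past 1.5-fold, 0 changed sides of 1, but no genotype ratio was past it. Those that were compared groups by *Trp73* UMIs. Some ratios inside 1.5-fold did cross 1, such as that of *Mdm2* by *Trp73* in the control, from 0.79 to 1.17. The ratio of knockout over control for *Mdm2* moved to 0.60 in female cells, 0.93 in cells below and 0.65 in cells at or above the immediate early median, and 0.60 in knockout cells with an *Etv4* or *Etv5* UMI, and kept 0.76 to 0.86 elsewhere. *Cdkn1a* moved to 0.47 in the 1 draw of thinned cells, whose knockout share of 3.33% lay below the 5.17% expected over all draws, and to 0.38 in knockout cells with an *Etv4* or *Etv5* UMI, against 0.61 to 0.82 elsewhere, and *Mdm4* to 0.88 in female cells. With groups of 2 or more over 0 thinned *Trp73* UMIs, the control ratios moved to 1.17 for *Mdm2* and 1.09 for *Cdkn1a* and the knockout ratio to 0.90 for *Mdm4*; the cause was not tested. *Perp* ranged from 1.22 to 1.75, *Trp53* from 0.87 to 1.10 and *Ccng1* from 0.90 to 1.46. The splits by immediate early genes, by *Etv4* or *Etv5* and without the cells of most UMIs were added after seeing the data. The number of genes past the fold could not differ from 0 at 2-fold or with 20 UMIs, which adds none of the 7, so these alternatives say nothing of stability. Free RNA, estimated from *Hbb-bs*, *Hba-a1* and *Ttr* but almost wholly from *Ttr*, was 6.02% of control and 3.81% of knockout cell UMIs. At these depths *Gadd45a* could not be compared, and *Trp53*, *Ccng1* and *Perp* rest on 42 to 176 UMIs per library.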
